A study of Mus musculus with 6 samples.

Results

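In HL-1, a mouse cardiomyocyte cell line that arose from a tumour of the atrium, low and normal oxygen were compared for the transcripts of the hypoxia-inducible factor (HIF) subunits and of proteins that modulate them. The members were 10 genes. The alpha subunits were Hif1a, Epas1 and Hif3a, the beta subunits Arnt and Arnt2, and the modulators Cited2, Cited4, Siah2 and Wsb1. Ankrd37 was grouped with the modulators, and whether it acts on HIF was not tested. The members were taken as all probe sets that the platform table assigns to these symbols. This gave 10 of 18193 named genes and 28 of 45037 probe sets on the arrays. Of these, 20 passed a filter on dim probe sets (mean log2 signal above the median of all probe sets, a geometric mean signal of 14.1), and each of the 10 genes kept at least 1. The samples were 3 samples of confluent HL-1 cells at 1% oxygen (hypoxia) and 3 at 21% oxygen (normoxia), all for 8 hours and with no other treatment or genotype named. HL-1 is 1 line of tumour origin, and the labels do not say that the 3 samples of a group were grown separately. All p-values thus measure the spread between these samples only, and part or all of it may be technical.

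HIF is a heterodimer of an oxygen-labile alpha subunit and a constitutive beta subunit, both of the bHLH-PAS family. With oxygen, prolyl hydroxylases mark the alpha subunits for the ubiquitin ligase that contains VHL, and they are degraded. In low oxygen they persist, pair with ARNT, bind hypoxia response elements and recruit the coactivators p300 and CBP. An array measures transcripts, and so does not show the amounts of the alpha subunit proteins.

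Upstream sequences are shown for the member that rose, for Wsb1 and Arnt2, whose hypoxia arrays also lay above all normoxia arrays, and for Hif1a as the central subunit. Each line holds the 250 bases before the gene's start in RefSeq (GRCm38.p6), 5′ to 3′ on the gene's strand. Capitals mark each match to ACGTG or GCGTG, the core letters of a hypoxia response element, on either strand. Ankrd37 lies at chr8:45999851-46000100 (minus strand), Wsb1 at chr11:79254696-79254945 (minus strand), Arnt2 at chr7:84410039-84410288 (minus strand) and Hif1a at chr12:73907617-73907866 (plus strand).
Ankrd37: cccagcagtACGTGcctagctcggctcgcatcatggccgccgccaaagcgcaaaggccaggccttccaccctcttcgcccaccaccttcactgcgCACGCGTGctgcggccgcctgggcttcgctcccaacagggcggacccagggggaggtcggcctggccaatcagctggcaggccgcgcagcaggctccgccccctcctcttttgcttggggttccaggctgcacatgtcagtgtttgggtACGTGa
Wsb1: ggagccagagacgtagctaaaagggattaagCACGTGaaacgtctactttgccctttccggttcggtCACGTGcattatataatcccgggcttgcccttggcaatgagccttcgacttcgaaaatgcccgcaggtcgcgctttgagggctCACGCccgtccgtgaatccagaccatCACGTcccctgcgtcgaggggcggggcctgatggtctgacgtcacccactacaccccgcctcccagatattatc
Arnt2: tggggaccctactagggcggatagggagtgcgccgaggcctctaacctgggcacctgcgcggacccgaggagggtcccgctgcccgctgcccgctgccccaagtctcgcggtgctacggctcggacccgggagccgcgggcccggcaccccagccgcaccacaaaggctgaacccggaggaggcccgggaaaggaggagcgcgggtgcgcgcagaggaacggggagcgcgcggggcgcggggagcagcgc
Hif1a: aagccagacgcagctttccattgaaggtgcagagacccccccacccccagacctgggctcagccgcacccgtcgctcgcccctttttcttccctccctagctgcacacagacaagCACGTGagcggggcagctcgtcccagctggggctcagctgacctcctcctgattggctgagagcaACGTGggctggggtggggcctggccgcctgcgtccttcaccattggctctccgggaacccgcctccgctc

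Counted on both strands, the Ankrd37 window held 4 matches, at positions -241, -155, -152 and -6 from the start, of which those at -155 and -152 overlap. The Wsb1 window held 6, and 4 of these form overlapping pairs on opposite strands inside the palindrome CACGTG, which occurs at -219 and -183. The second Wsb1 window listed by RefSeq and the Arnt2 window held 0. Hif1a held 3, of which 2 form such a pair at -135. Windows were found for 8 of the 10 members, 9 in all, and 7 of the 9 held a match. Of all 32851 windows of this length, 38.6% held at least 1 match and 16.7% at least 2. A match is a string of letters, and its use by a factor was not measured here.

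Over all 22518 probe sets kept, limma called 137 at a Benjamini-Hochberg adjusted p under 0.05, or 0.608%, with 0.533% higher and 0.0755% lower in hypoxia. The 137 became 39 with hypoxia replicate 1 left out and 63 with hypoxia replicate 2 left out. Leaving out normoxia replicate 2 gave 83, and leaving out normoxia replicate 3 gave 45. Of the 20 member probe sets 1 was called, that of Ankrd37, which was higher in hypoxia, and 0 were lower. At an unadjusted p under 0.05, 5 were higher and 1 lower, 6 in all, where 10.9% of all probe sets passed that level. The groups did not overlap for 6 of the 20, with hypoxia above for 3 and below for 3. Among all probe sets kept this held for 16.5%, with hypoxia above for 7.48% and below for 9.06%. The median log2 fold change was -0.05 over the 20 and -0.04 over all probe sets. With a single call, its share of the members rests on 1 gene. Changes in RNA per cell and in the number of cells of a kind cannot be told apart in these bulk samples.

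**Figure D1:**
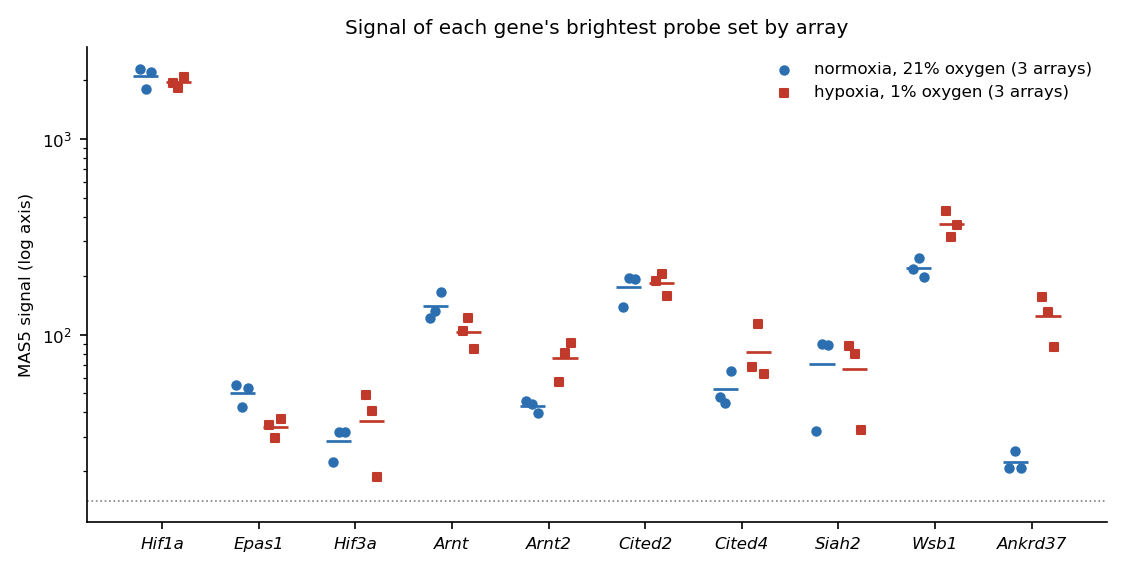
MAS5 signal (log axis) of the brightest kept probe set of each gene on each array, circles for normoxia and squares for hypoxia, with bars at the mean of 3 arrays and a dotted line at the filter level of 14.1. The Ankrd37 squares lie between 86.1 and 156.3 and its circles between 20.7 and 25.4. Signals of different genes' probe sets are not comparable with each other.

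The transcripts of the alpha subunits were not called in either direction. For Hif1a, which encodes the HIF-1α subunit, probe set 1427418_a_at read 1933.5, 1820.2 and 2087.1 in hypoxia and 2291.8, 1796.0 and 2208.7 in normoxia. The groups overlapped, and the log2 fold change was -0.10 with a 95% interval of -0.37 to 0.17 (adjusted p = 0.789, limma). A second probe set, 1416035_at, read from 373.3 to 414.7 in hypoxia and from 357.2 to 474.7 in normoxia (log2 fold change -0.06, interval -0.39 to 0.27). The third kept one, 1448183_a_at, read 267.6, 311.5 and 338.7 in hypoxia against 372.2, 346.6 and 420.1 in normoxia. Its hypoxia arrays all lay below normoxia, at a log2 fold change of -0.31 (SE 0.15, interval -0.65 to 0.02, adjusted p = 0.497). All 3 estimates were below 0, but after centring each array on its median the first and second were at 0.01 and 0.05. With the signals as deposited, the intervals of the 3 probe sets hold no log2 rise above 0.27 and no fall beyond -0.65. They do not include the shift that another scaling of the arrays brings.

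The last Hif1a probe set, 1431981_at, lay under the filter. It read 0.7, 1.4 and 2.0 in hypoxia and 25.2, 15.7 and 12.5 in normoxia. The groups did not overlap, and the 3 hypoxia values are close to the smallest signals of the table, where MAS5 values vary widely. In the fit without a filter its log2 fold change was -3.77 (SE 0.87, adjusted p = 0.153), so it was not called there either, and its log2 difference stood apart from those of the brighter Hif1a probe sets. Which transcript form it detects is not given in the sources used here.

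Epas1 encodes HIF-2α, the alpha subunit best known from endothelial cells. Probe set 1435436_at read 34.5, 29.7 and 37.1 in hypoxia and 55.0, 42.9 and 53.6 in normoxia. Every hypoxia array lay below every normoxia array, with a mean of 33.8 ± 3.75 against 50.5 ± 6.62 (SD, n = 3 arrays; every ± below is such an SD). The log2 fold change was -0.58 (SE 0.24, interval -1.10 to -0.05), and the difference was not called (adjusted p = 0.412, limma). The other Epas1 probe set lay under the filter, at 0.7 to 3.6 in hypoxia and 1.7 to 17.4 in normoxia. Endothelial markers were low in these cells: 2 of 7, Kdr and Vwf, passed the filter, and the summed signal of the 7 ran from 158.0 to 236.5 in hypoxia and from 173.4 to 224.3 in normoxia, with no marker called.

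Hif3a encodes the third alpha subunit, some of whose splice forms inhibit HIF activity. Only 2 of its 6 probe sets passed the filter. Probe set 1425428_at read 49.0, 40.9 and 18.7 in hypoxia and 22.2, 31.7 and 31.7 in normoxia, and 1425429_s_at read 33.4, 29.1 and 9.4 against 22.7, 19.5 and 25.8. In both, hypoxia replicate 3 was the lowest of the 6 arrays and hypoxia replicates 1 and 2 were the highest. The log2 fold changes were 0.25 (interval -0.62 to 1.12, adjusted p = 0.852) and -0.11 (interval -1.20 to 0.99, adjusted p = 0.952). Without hypoxia replicate 3, the estimates were 0.67 and 0.47 and neither passed. The other 4 probe sets had group means of at most 10.3.

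**Figure D2:**
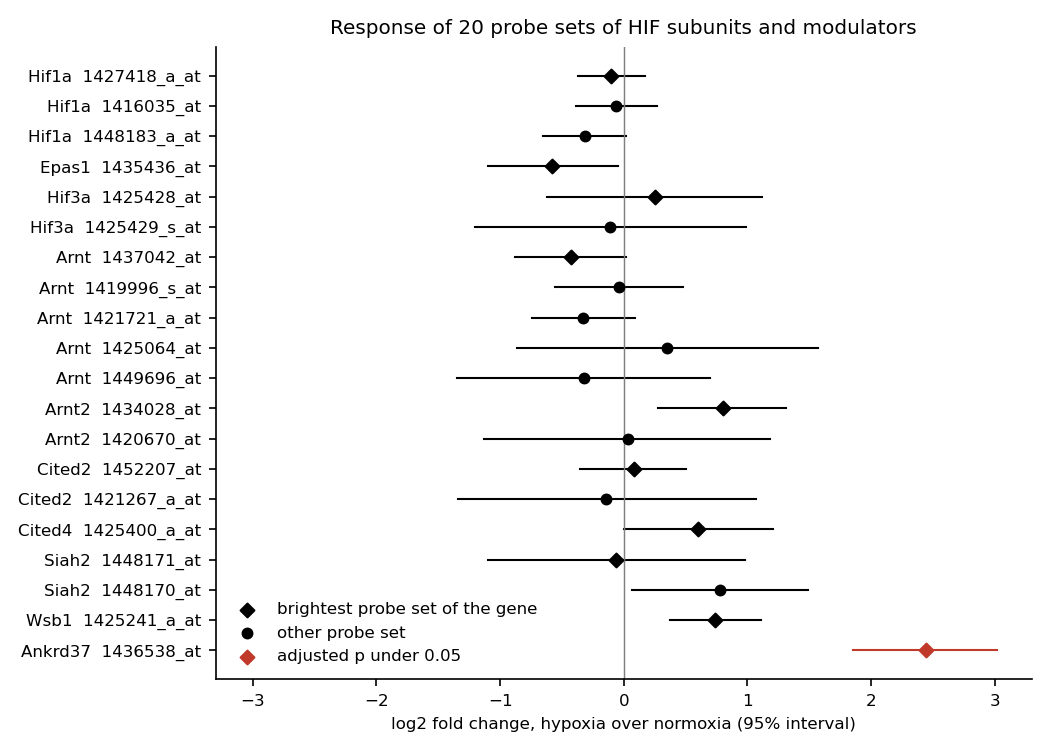
Log2 fold change of hypoxia over normoxia for each of the 20 kept member probe sets, with the 95% interval from limma. Diamonds mark the brightest probe set of a gene and circles the others. Ankrd37, in red, is the only one with an adjusted p under 0.05, at 2.44, and the other estimates lie between -0.58 and 0.80.

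Among the beta subunits, the log2 fold change of the brightest probe set was below 0 for Arnt and above 0 for Arnt2, and no probe set of either gene was called. Arnt, the general partner of the HIF alpha subunits and of the aryl hydrocarbon receptor, read 104.7, 121.9 and 84.1 in hypoxia and 121.5, 131.9 and 164.4 in normoxia on its brightest probe set, 1437042_at. The groups overlapped by a narrow margin, at 121.9 and 121.5. The log2 fold change was -0.43 (SE 0.20, interval -0.88 to 0.02, adjusted p = 0.479). On 1421721_a_at, hypoxia read 66.4, 88.8 and 73.2, all below the normoxia values of 90.7, 96.1 and 97.9 (log2 fold change -0.33, adjusted p = 0.565). The remaining 3 Arnt probe sets had log2 fold changes of -0.04, -0.32 and 0.35, each with overlapping groups and adjusted p from 0.831 to 0.965, so 4 of the 5 estimates were below 0. That of 1449696_at, at -0.32, was -0.68 without hypoxia replicate 2 and -0.09 without hypoxia replicate 1.

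Arnt2, a paralogue of Arnt best known from the nervous system, read 57.5, 80.7 and 90.8 in hypoxia and 45.6, 44.2 and 39.9 in normoxia on probe set 1434028_at. All hypoxia arrays lay above the normoxia arrays, with means of 76.3 ± 17.1 and 43.2 ± 2.97. The log2 fold change of 0.80 (SE 0.23, interval 0.28 to 1.31) had an unadjusted p of 0.00626 by limma and was not called (adjusted p = 0.222). A dimmer probe set just under the filter, 1420669_at, read 12.2, 17.1 and 21.8 in hypoxia and 6.0, 6.9 and 5.1 in normoxia, again without overlap (log2 fold change 1.48, SE 0.62, adjusted p = 0.571 in the fit without a filter). The third, 1420670_at, had overlapping groups with a mean of 16.5 in each and a log2 fold change of 0.03 (interval -1.13 to 1.18).

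The change in a signal ratio within an array does not depend on that array's scale, so members were also compared as pairs. These 8 pairs were chosen after the values were seen: 4 of paralogues and 4 of probe sets of the same gene. An exact two-sided permutation test of 3 arrays against 3 cannot give a p below 0.1, which is 0.2 after Benjamini-Hochberg adjustment over the 8, so none could pass. The Hif1a signal divided by that of Epas1 was 56.0, 61.3 and 56.3 in hypoxia and 41.7, 41.9 and 41.2 in normoxia. The groups did not overlap, and the log2 ratio differed by 0.48 (5.85 ± 0.07 against 5.38 ± 0.01, exact p = 0.1, n = 3). It was 0.30 after quantile normalization and 0.32 after cyclic loess.

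Arnt2 over Arnt was 0.549, 0.662 and 1.08 in hypoxia and 0.375, 0.335 and 0.243 in normoxia. The log2 ratio was -0.45 ± 0.50 against -1.68 ± 0.33, with no overlap and a difference of 1.23, or 2.34-fold (exact permutation p = 0.1). Over the 9 alternatives run, it ranged from 0.95 to 1.44. Cited4 over Cited2 differed by 0.53 (exact permutation p = 0.1), with 0.363, 0.555 and 0.401 in hypoxia and 0.345, 0.228 and 0.341 in normoxia. That difference was 0.35 without hypoxia replicate 2 and 0.33 without normoxia replicate 2. Hif3a over Hif1a overlapped between the groups (difference 0.35, exact permutation p = 0.6, and from 0.07 to 0.82 over the alternatives, these being the values without hypoxia replicate 1 and without hypoxia replicate 3). None of these pairs was called, and a ratio does not tell which of its 2 probe sets a difference comes from.

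**Figure D3:**
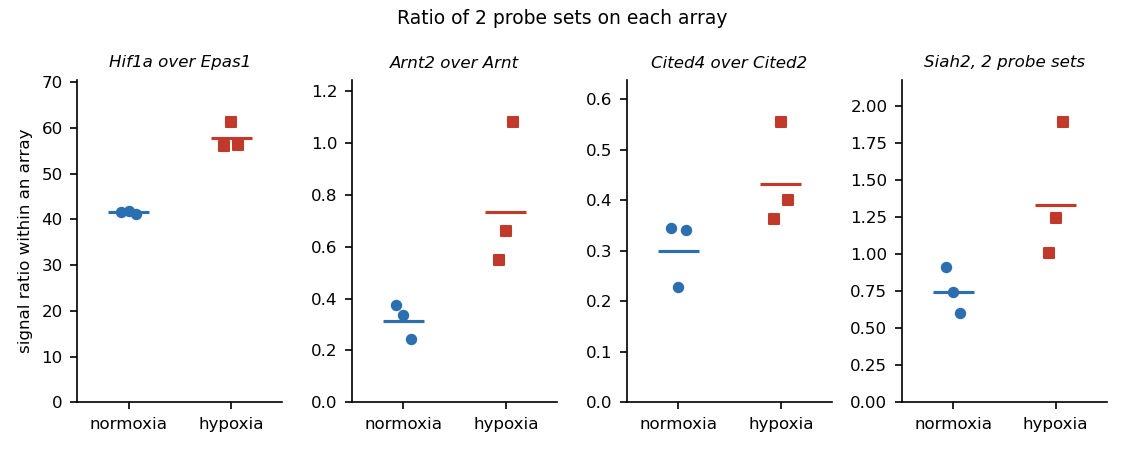
Signal ratio of 2 probe sets on each array (linear axes from 0, a scale of its own for each panel), circles for normoxia and squares for hypoxia, with bars at the geometric mean of 3 arrays. The 4 panels are those of the 8 pairs whose groups did not overlap, and the other pairs overlapped. That squares and circles lie apart in each panel thus follows from the choice. Which of them lies above depends on which of the 2 probe sets was divided by the other. The groups are tightest for Hif1a over Epas1, at 56.0 to 61.3 against 41.2 to 41.9.

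The CITED proteins bind the same domain of p300 and CBP as the HIF alpha subunits and so restrain HIF activity. Cited2, itself known as a HIF target in other cells, read 188.9, 203.6 and 157.1 in hypoxia and 138.4, 194.9 and 191.6 in normoxia on 1452207_at. The groups overlapped, with a log2 fold change of 0.08 (interval -0.35 to 0.50, adjusted p = 0.914). Its other probe set, 1421267_a_at, varied more than most: it read 44.0, 75.4 and 23.1 in hypoxia and 22.9, 96.4 and 46.3 in normoxia, a 4.21-fold range within normoxia. Its within-group SD of 0.95 log2 lay at the 97.2 percentile of all probe sets kept, and its log2 fold change of -0.14 had an interval of -1.34 to 1.07. Cited4 read 68.5, 112.9 and 63.0 in hypoxia and 47.7, 44.5 and 65.3 in normoxia. One normoxia array, replicate 3, lay above hypoxia replicate 3, and the log2 fold change of 0.60 (SE 0.27, interval 0.00 to 1.21) did not pass (adjusted p = 0.457). It was 0.34 without hypoxia replicate 2. A second Cited4 probe set lay under the filter, with means of 8.43 and 10.3.

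Siah2 encodes a RING ubiquitin ligase that directs HIF prolyl hydroxylases to the proteasome. Its 2 probe sets gave different estimates. Probe set 1448170_at read 88.4, 98.4 and 61.9 in hypoxia and 29.6, 67.2 and 53.4 in normoxia, with a log2 fold change of 0.78 (SE 0.32, interval 0.07 to 1.49, adjusted p = 0.412). It was 0.44 without normoxia replicate 1. The slightly brighter 1448171_at read 87.3, 79.5 and 32.7 in hypoxia and 32.3, 89.9 and 89.0 in normoxia, with a log2 fold change of -0.06 (interval -1.10 to 0.98, adjusted p = 0.970). Hypoxia replicate 3 and normoxia replicate 1 were the lowest of their groups on both. The ratio of the first to the second was 1.01, 1.24 and 1.89 in hypoxia and 0.916, 0.747 and 0.600 in normoxia. It was higher on every hypoxia array, by 0.84 log2 (exact permutation p = 0.1), whereas the ratios for Hif3a, Arnt2 and Cited2 probe sets overlapped between the groups (exact permutation p = 0.3, 0.3 and 0.7).

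The arrays that were low for Siah2 were also those with the lowest weights in limma's array weighting, 0.579 for hypoxia replicate 3 and 0.587 for normoxia replicate 1, against 0.923 to 2.116 for the others. Their deviations from their group means correlated at 0.319 over all probe sets kept. This was the highest correlation between a hypoxia and a normoxia array, and the others ran from -0.3 to 0.207. Deviations are taken from the mean of each group, so these correlations are not independent of each other. Of the 20 member probe sets, hypoxia replicate 3 was the lowest of its group in 10 and normoxia replicate 1 in 11, against 37.5% and 37.9% of all probe sets kept. Their part in the Siah2 and Cited2 values was not tested. Without these 2 arrays, Siah2 stood at 0.64 and -0.10 on its probe sets, with adjusted p of 0.224 and 0.877, and Ankrd37 was still the 1 member called.

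**Figure D4:**
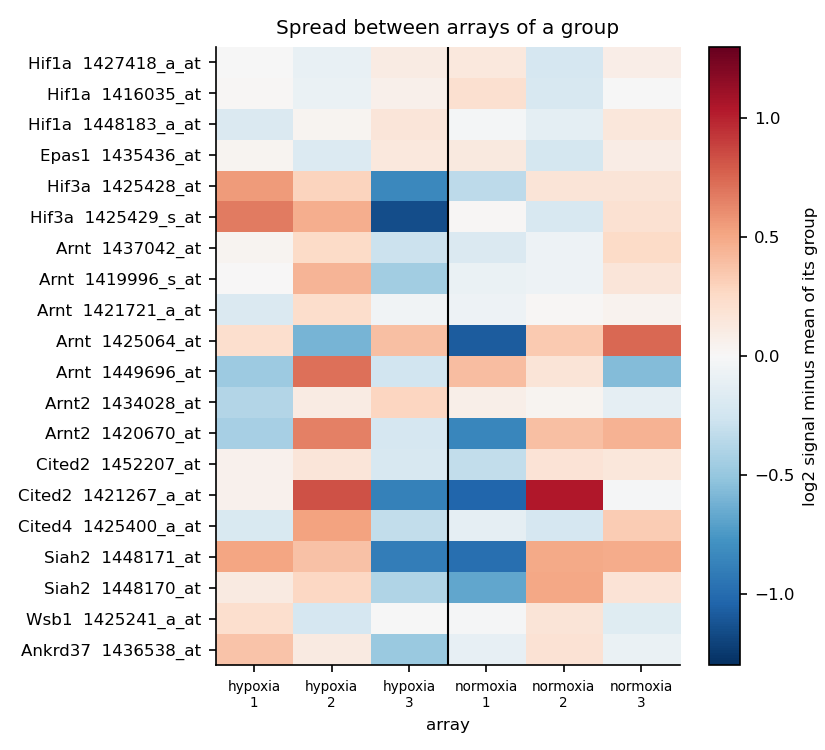
Log2 signal of the 20 kept member probe sets on each array minus the mean of that array's group, from blue (below) to red (above). The widest deviations are in Hif3a, Siah2, Cited2 1421267_a_at, Arnt2 1420670_at and the dim Arnt probe sets 1425064_at and 1449696_at. The rows of Hif1a, Epas1 and Wsb1 are pale.

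Wsb1 encodes the substrate receptor of a SOCS-box ubiquitin ligase, reported to act on VHL in human cells. It is measured by 1 probe set, which read 428.1, 315.8 and 365.5 in hypoxia and 216.8, 246.8 and 196.9 in normoxia. The lowest hypoxia array lay above the highest normoxia array, with means of 370 ± 56.3 and 220 ± 25.1. The fold change was 1.67 (log2 0.74, SE 0.17, interval 0.37 to 1.11). It had the next smallest p after Ankrd37 among the members (unadjusted p = 0.00125, limma) and was not called (adjusted p = 0.101). With array weights it passed (log2 fold change 0.84, adjusted p = 0.0250), and over all alternatives the adjusted p ran from 0.0250 to 0.445, the highest without normoxia replicate 3. The log2 fold change ran from 0.63 to 0.85, all above 0.

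Ankrd37, a small ankyrin repeat protein whose transcript is a known HIF target, was the member that rose. Its 1 probe set read 156.3, 130.3 and 86.1 in hypoxia and 20.7, 25.4 and 20.9 in normoxia. All hypoxia arrays lay far above the normoxia arrays, and the 3 normoxia arrays were within 1.23-fold of each other. The mean signal was 124 ± 35.5 against 22.3 ± 2.66, the second of which is not far above the filter level of 14.1. The rise was 5.42-fold (log2 fold change 2.44, SE 0.26, interval 1.85 to 3.02, adjusted p = 0.00250, limma). It passed without each array in turn, at log2 fold changes from 2.25 to 2.68, with the largest adjusted p of those fits without hypoxia replicate 1 (0.0368). Among all genes kept, 0.662% were called higher.

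The 3 genes whose log2 signals over the 6 arrays, centred on their means, came nearest to those of Ankrd37 were Atp7b, P4ha2 and Ndrg1, out of 11331 other genes. Their root mean square differences from Ankrd37 were 0.20, 0.20 and 0.23 log2. Atp7b, a copper-transporting ATPase, read 114.6, 94.5 and 54.3 in hypoxia and 11.8, 19.8 and 18.0 in normoxia. P4ha2, a collagen prolyl hydroxylase subunit, read 703.4, 547.6 and 382.9 against 117.6, 154.6 and 115.6. Ndrg1, a stress-responsive gene of the NDRG family, read 664.1, 522.2 and 266.5 against 63.4, 111.8 and 94.3. In all 4 genes hypoxia replicate 1 was the highest and hypoxia replicate 3 the lowest hypoxia array, and normoxia replicate 2 was the highest normoxia array. The 3 genes were chosen for their likeness to Ankrd37 on these same 6 arrays, so a shared order follows from the choice.

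**Figure D5:**
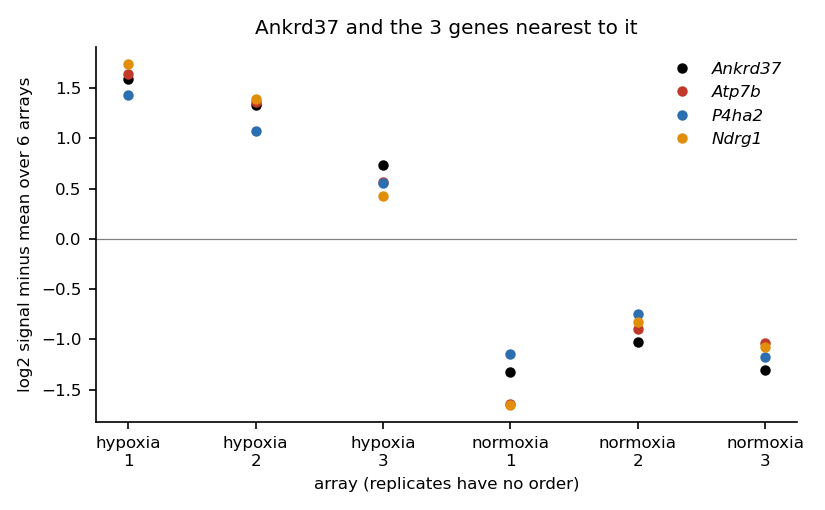
Log2 signal minus the gene's mean over 6 arrays, for Ankrd37 and the 3 genes nearest to it, by array. The 4 genes lie close together on every array, above 0 on the hypoxia arrays and below 0 on the normoxia arrays. This closeness follows from how the 3 were chosen.

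The rest of the pathway was followed in 3 lists. A list of oxygen sensing and HIF alpha turnover held 21 genes, of which 17 had a probe set assigned to that gene alone. Of the 16 genes that passed the filter, 2 rose and 0 fell. Among all genes kept, 0.75% were called in either direction and 0.662% were higher. The list's median log2 fold change was 0.02, against -0.04 over all genes kept. Egln3, a prolyl hydroxylase that SIAH2 directs to degradation, rose by 2.61 (adjusted p = 0.00336), and Egln1, the main HIF prolyl hydroxylase of most cells, by 1.56 (adjusted p = 0.0187). Leaving out hypoxia replicate 1 took the adjusted p of Egln1 to 0.154, leaving out hypoxia replicate 2 to 0.0951, and leaving out normoxia replicate 3 to 0.0767, so that it was not called in these fits. Without the variance trend in limma, Egln3 and Egln1 had adjusted p of 0.0792 and 0.157, and 0 genes of the list were called. Hsp90aa1, a chaperone of HIF-1α and the brightest gene of the list that did not pass, stood at 0.25 log2 (adjusted p = 0.425). Its hypoxia arrays all lay above normoxia, at 3851.2 to 4859.2 against 3463.7 to 3587.5. Vhl itself, chosen after its values were seen, read 259.7, 209.8 and 188.7 in hypoxia and 111.1, 142.8 and 145.3 in normoxia. Its groups did not overlap, and its log2 fold change of 0.72 did not pass (adjusted p = 0.170).

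The list of other bHLH-PAS proteins and coactivators held 17 genes, each with a probe set assigned to it alone. Of the 11 that passed the filter, limma called 0 and had 1 at an unadjusted p under 0.05. The list's median log2 fold change was 0.06. Of all genes kept, 12.4% were at that unadjusted level, a share near that of the list. That 1 was Arntl, the circadian bHLH-PAS protein BMAL1, named after its values were seen, at 90.4, 88.2 and 116.5 in hypoxia and 51.2, 44.4 and 52.8 in normoxia (log2 fold change 0.98, adjusted p = 0.0731). It was called after median centring and with array weights. The coactivators Ep300 and Crebbp, which the CITED proteins bind and which were also chosen after the values were seen, had log2 fold changes of -0.27 and -0.11 (adjusted p = 0.637 and 0.841). Ncoa1, the brightest of the list, stood at 0.06.

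The list of hypoxia response genes held 37, of which 32 had a probe set assigned to that gene alone. Of the 31 that passed the filter, 18 rose and 0 fell, with a median log2 fold change of 1.08. Over all genes kept, the same 0.75% were called and the median was -0.04. The 4 with the smallest adjusted p were Slc2a1, Ak4, Higd1a and Bnip3, with log2 fold changes of 2.08, 4.18, 1.65 and 2.87. The 18 became 7 without hypoxia replicate 1, 8 without hypoxia replicate 2 and 7 without normoxia replicate 3. They became 2 without the variance trend. Tfrc, the transferrin receptor, stood at 0.58 and was not called (adjusted p = 0.174). Its groups did not overlap, at 1260.4 to 1896.4 in hypoxia and 981.0 to 1033.0 in normoxia. This list was drawn up with results of these data known, so its count is a description. In the same cells 0 of the 5 subunit genes were called. With 0.75% of all genes kept called, a count of 0 among 5 says little about the subunits. At an unadjusted p under 0.05, limma had 1 of the 5 lower (Epas1) and 1 higher (Arnt2), beside 12.4% of all genes kept.

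For the series as a whole, array medians lay between 15.0 and 19.0 and the trimmed mean signal was 99.5 on each array, so the arrays share one scale. All 10 atrial cardiomyocyte markers passed the filter, with summed signals of 30990.0 to 32950.8 in hypoxia and 31808.7 to 33723.4 in normoxia and 0 called. Nppa was higher on every hypoxia array (1149.8 to 1608.5 against 585.0 to 1104.8), and so was Sln (77.4 to 102.9 against 34.9 to 60.4). Myl4 was lower on every hypoxia array (4505.7 to 4915.2 against 4994.7 to 5390.0). Leukocyte markers summed to 49.9 to 85.5 in hypoxia and 38.7 to 50.7 in normoxia, with Ptprc, Lyz2 and Cd3e under the filter. Cd68, the 1 of the 4 that passed it, was higher on every hypoxia array, at 39.3 to 49.2 against 16.5 to 25.3, and was not called (adjusted p = 0.157). Its part in the members' values was not tested. Fibroblast markers summed to 119.9 to 239.4 in hypoxia and 127.5 to 140.1 in normoxia, with 3 of 6 above the filter and 0 called. Smooth muscle markers, led by Acta2, summed to 12105.5 to 15066.2 in hypoxia and 11311.8 to 13212.2 in normoxia, with Myh11 under the filter and 0 of the 4 called. Tagln was higher on every hypoxia array (3663.3 to 4752.6 against 2897.7 to 3493.2), and so was Cnn1 (314.8 to 462.0 against 249.1 to 269.6).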

How the data were processed

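Total RNA of 6 HL-1 samples was hybridised to one-colour Affymetrix mouse arrays. The deposited values were linear intensity values, 1 per probe set and array, which the authors made with MAS5 per the submitters' processing notes, where neither version nor settings are given. Detection calls were not used here. Precision is limited by the number of arrays.

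The deposited signals held 10 zeros, which were replaced by 0.1, the lowest positive signal, before log2 was taken. The 22518 probe sets with a mean log2 signal above the median over all 45037 were fitted together with limma 3.58.1 in R 4.3.3 (lmFit, eBayes with trend, two-sided, no covariates), with Benjamini-Hochberg adjustment over all of them. Calls were made at an adjusted p under 0.05. Simulated data with independent normal noise were used to check that mean estimates lay near the changes put in. That check did not judge the rate of calls. Names came from the platform table and were compared through gene IDs with RefSeq (GRCm38.p6), which changed no name. Of the probe sets, 34945 had 1 symbol, 932 several and 9160 none. The brightest kept 1-symbol probe set represented a gene in the lists. No build belongs to the array values.

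The members, lists, markers and naming rule were chosen with earlier results of these data known. The rule named every member, from each list the 4 genes that passed with the smallest adjusted p and the brightest that did not, and the 3 genes nearest to each member called. In the lists, 58 of 75 genes had a kept 1-symbol probe set. Alternatives were 3 normalizations, an offset, 3 other filters, 2 variance models, weights for arrays, a replicate block, gene means over probe sets, leaving out each array with the same probe sets, and, added after seeing the data, leaving out the 2 arrays of lowest weight. Same-numbered arrays deviated from their group means with correlations of -0.076, 0.207 and -0.136, so the numbers were not taken as pairs.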

Additional observations from a re-analysis of the deposited data

How the results depend on the processing

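The call for Ankrd37 held under each alternative that kept its probe set, at log2 fold changes from 2.25 to 2.68 and adjusted p from 0.000279 to 0.0430. The filter at the 75th percentile removed it, which left 0 member probe sets called among 7 kept, and array weights gave 2, with Wsb1 added. Over the whole table, 18 probe sets were called without trend, 437 with array weights and 39 to 201 without 1 array, against 137. Without the 2 arrays of lowest weight the count was 441. These 2 were chosen for their spread, a choice that can by itself raise the number of calls, which was not tested. Of the list genes, 2 were called without trend and 8 to 23 without 1 array, against 20. With the replicate block 105 probe sets were called and 1 member (Ankrd37, adjusted p = 0.00568). Of the fits without 1 array, those without hypoxia replicate 1 and without normoxia replicate 3 gave 8 list genes each, and that without hypoxia replicate 2 gave 9.

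Median centring moved the median log2 fold change of all probe sets by 0.11. Signs turned for members that were not called. Under median centring these were Hif1a 1427418_a_at (0.01) and 1416035_at (0.05), Hif3a 1425429_s_at (0.00), Arnt 1419996_s_at (0.07) and Siah2 1448171_at (0.05). Under cyclic loess they were Hif3a 1425429_s_at (0.00), Arnt 1419996_s_at (0.01) and Siah2 1448171_at (0.01), under quantile normalization Arnt 1419996_s_at (0.03), and with array weights Hif3a 1425429_s_at (0.11) and Arnt2 1420670_at (-0.27). Without the 2 arrays of lowest weight they were Hif1a 1416035_at (0.01), Hif3a 1425429_s_at (0.48), Arnt 1419996_s_at (0.14), 1425064_at (-0.38) and 1449696_at (0.00), and Arnt2 1420670_at (-0.29). Leaving out 1 array gave ranges across 0 for Hif1a 1416035_at (-0.16 to 0.05), Hif3a 1425428_at (-0.03 to 0.67) and 1425429_s_at (-0.45 to 0.47), and Arnt 1419996_s_at (-0.26 to 0.18) and 1425064_at (-0.19 to 0.73). It did so also for Arnt2 1420670_at (-0.40 to 0.26), Cited2 1421267_a_at (-0.65 to 0.38) and 1452207_at (-0.09 to 0.18), and Siah2 1448171_at (-0.55 to 0.39). The log2 ratio of the Cited2 probe sets changed by -0.57 to 0.22 without 1 array, against -0.21. The cause of these turns was not tested.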

Other observations

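Among the 18 hypoxia response genes that rose, the order of the arrays within a group was often that of Ankrd37. Hypoxia replicate 3 was the lowest hypoxia array in 13 of the 18, against 37.5% of all probe sets kept, and normoxia replicate 2 was the highest normoxia array in 14 of the 18, against 34.4%. Among all 120 probe sets that rose, these counts were 67 and 68. Hif1a and Epas1 had another order: on 1427418_a_at and 1435436_at, replicate 2 was the lowest array of both groups, at 1820.2 and 1796.0 for Hif1a and at 29.7 and 42.9 for Epas1. On Hif1a 1416035_at replicate 2 was also the lowest of both groups, at 373.3 and 357.2. On Hif1a 1448183_a_at it was so in normoxia (346.6), but in hypoxia replicate 1 was the lowest (267.6). What sets these orders was not tested.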
